A study of Mus musculus with 66 samples.

Results

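The genes described here encode proteins that read methylated DNA or remove the methyl mark. They are the methyl-CpG-binding domain genes Mbd1, Mbd2, Mbd3 and Mbd4, the dioxygenase genes Tet1, Tet2 and Tet3, and the readers Uhrf1 and Zbtb33. These 9 genes were chosen by symbol from the 30084 symbols in the count table, without use of their values, and all 9 were among the 16145 genes with enough counts to be tested. They were followed in cultured mouse neurons in which a lentivirus carrying a short hairpin RNA (shRNA), a silencing agent that lowers the matching mRNA, depleted 1 of 9 chromatin or transcription regulators.

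All cultures were wildtype (WT) and came from E16.5 embryos sorted into males and females. The depleted regulators were Dnmt3a, a DNA methyltransferase, and Mbd5, a relative of the Mbd genes above, together with Ash1l, Chd8, Kdm6b, Kmt2c, Med13l, Setd5 and Tbr1. The control cultures received a nontargeting shRNA, and a further group received no virus. Cultures were freed of virus on day 6 and lysed on day 10, at virus doses meant to leave about 50% of the target. Each treatment had 3 libraries per sex, or 66 libraries in 22 groups. The labels speak of a triplicate of wells and do not say that libraries came from separate cultures or animals, so p-values measure the spread between these libraries, which may be technical. In bulk RNA, fewer cells of a type and less RNA per cell cannot be told apart.

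As background, DNA methylation in neurons is written by enzymes that include DNMT3A, is abundant, and is read by proteins with a methyl-CpG-binding domain. MBD2 binds methylated CpG and, like the weakly binding MBD3, is a subunit of the NuRD deacetylase and remodelling complex, while MBD4 is a glycosylase that repairs mismatches at methylated sites. TET1, TET2 and TET3 oxidise 5-methylcytosine to 5-hydroxymethylcytosine, a mark that is plentiful in neurons. UHRF1 brings DNMT1 to newly replicated DNA, and ZBTB33 (Kaiso) binds methylated DNA through zinc fingers and works with the NCoR corepressor. MBD5 has a related domain and is known as a neurodevelopmental disease gene and as a part of a histone deubiquitinase complex.

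Tet1 and Tet3 carried the clearest differences of the TET genes, so the 250 bases before their RefSeq starts are shown (build GRCm38.p6, 5′ to 3′ on the minus strand, which is the gene strand), with each CpG, the site of methylation and of TET action, in capitals. The Tet1 stretch is chr10:62887325-62887574 and the Tet3 stretch is chr6:83441679-83441928.
Tet1: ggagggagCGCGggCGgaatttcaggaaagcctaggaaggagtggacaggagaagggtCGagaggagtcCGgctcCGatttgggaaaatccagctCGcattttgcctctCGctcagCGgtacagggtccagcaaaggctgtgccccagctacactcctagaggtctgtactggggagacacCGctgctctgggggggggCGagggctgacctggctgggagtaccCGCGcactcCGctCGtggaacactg
Tet3: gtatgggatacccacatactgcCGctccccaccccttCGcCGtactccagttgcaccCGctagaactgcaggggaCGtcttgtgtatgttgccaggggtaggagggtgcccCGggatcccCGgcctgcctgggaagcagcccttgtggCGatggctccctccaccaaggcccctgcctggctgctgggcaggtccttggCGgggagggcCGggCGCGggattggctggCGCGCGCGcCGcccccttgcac
Tet1 had 15 CpG in this window and 62.8% G or C, and Tet3 had 17 CpG and 69.6% G or C. The median over 32851 RefSeq promoters of the same length was 6 CpG. The GC box letters GGGCGG, searched on both strands, occurred 1 time in each window and were present in 32.7% of all promoters. CCAAT occurred 1 time, in Tet3, and in 33.8% of all promoters. By the GENCODE annotation of GRCm38, Tet1 spans 62804570 to 62908996 of chromosome 10 and Tet3 spans 83362373 to 83459084 of chromosome 6, and both RefSeq starts lie inside these spans, so other annotated starts exist upstream. The files hold gene totals and no methylation calls, so nothing was measured at these bases themselves.

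Total counts per library ran from 13634872 to 66074822, with a median of 31494162. The mean level of each target was below the nontargeting mean in all 18 knockdown groups, at 22.3% to 54.3% of it, and 15 of the 18 decreases were called. Those of Kdm6b in males and females (edgeR adjusted p = 0.0953 and 0.856) and of Setd5 in males (0.402) were not. Setd5 stood at 141 CPM (counts scaled by library size) in male replicate 1 of the Setd5 shRNA label, against 42.9 and 42.7 in replicates 2 and 3. Kdm6b stood at 39.9 CPM in male replicate 1 of the Kdm6b shRNA label, against 17.2 in each of replicates 2 and 3, and Setd5 at 44.9 CPM there. Female replicate 1 of the Setd5 shRNA label held 612 counts of Ddx3y and 574 of Kdm5d with 0 of Uty, all Y-linked genes. The calls of the 9 genes that rest on these libraries are also given without them, whereas shares over all genes and marker sums include them. All 8 neuron markers and all 4 interneuron markers had counts in every library. The microglial genes Tmem119 and C1qa were at 0 in 37 and 35 of 66 libraries, the endothelial gene Cldn5 in 34 and the oligodendrocyte gene Sox10 in 52.

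In nontargeting neurons Mbd3 was the most abundant of the 9 genes and Uhrf1 the scarcest. Levels between genes were compared as CPM per kilobase of exon (mean ± SD, n = 6 libraries of both sexes). Mbd3 stood at 39.9 ± 1.96, above every library's value of the next gene. Zbtb33 followed at 8.98 ± 0.592, Tet3 at 7.40 ± 1.83, Mbd2 at 5.28 ± 0.349, Mbd1 at 4.58 ± 0.565, Tet1 at 3.53 ± 0.627 and Tet2 at 3.15 ± 0.506. The ranges of each neighbouring pair in that run overlapped between libraries, so these ranges do not resolve the order of neighbours. Genes further apart in the run were separate in places. Zbtb33 lay above Mbd2 (lowest 8.29 against highest 5.88) and Mbd2 above Tet1 (lowest 4.82 against highest 4.22). Mbd4 at 0.848 ± 0.105 and Uhrf1 at 0.265 ± 0.0706 lay lower, each with no overlap with the gene before it. In cultures without virus the order was the same.

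**Figure D1:**
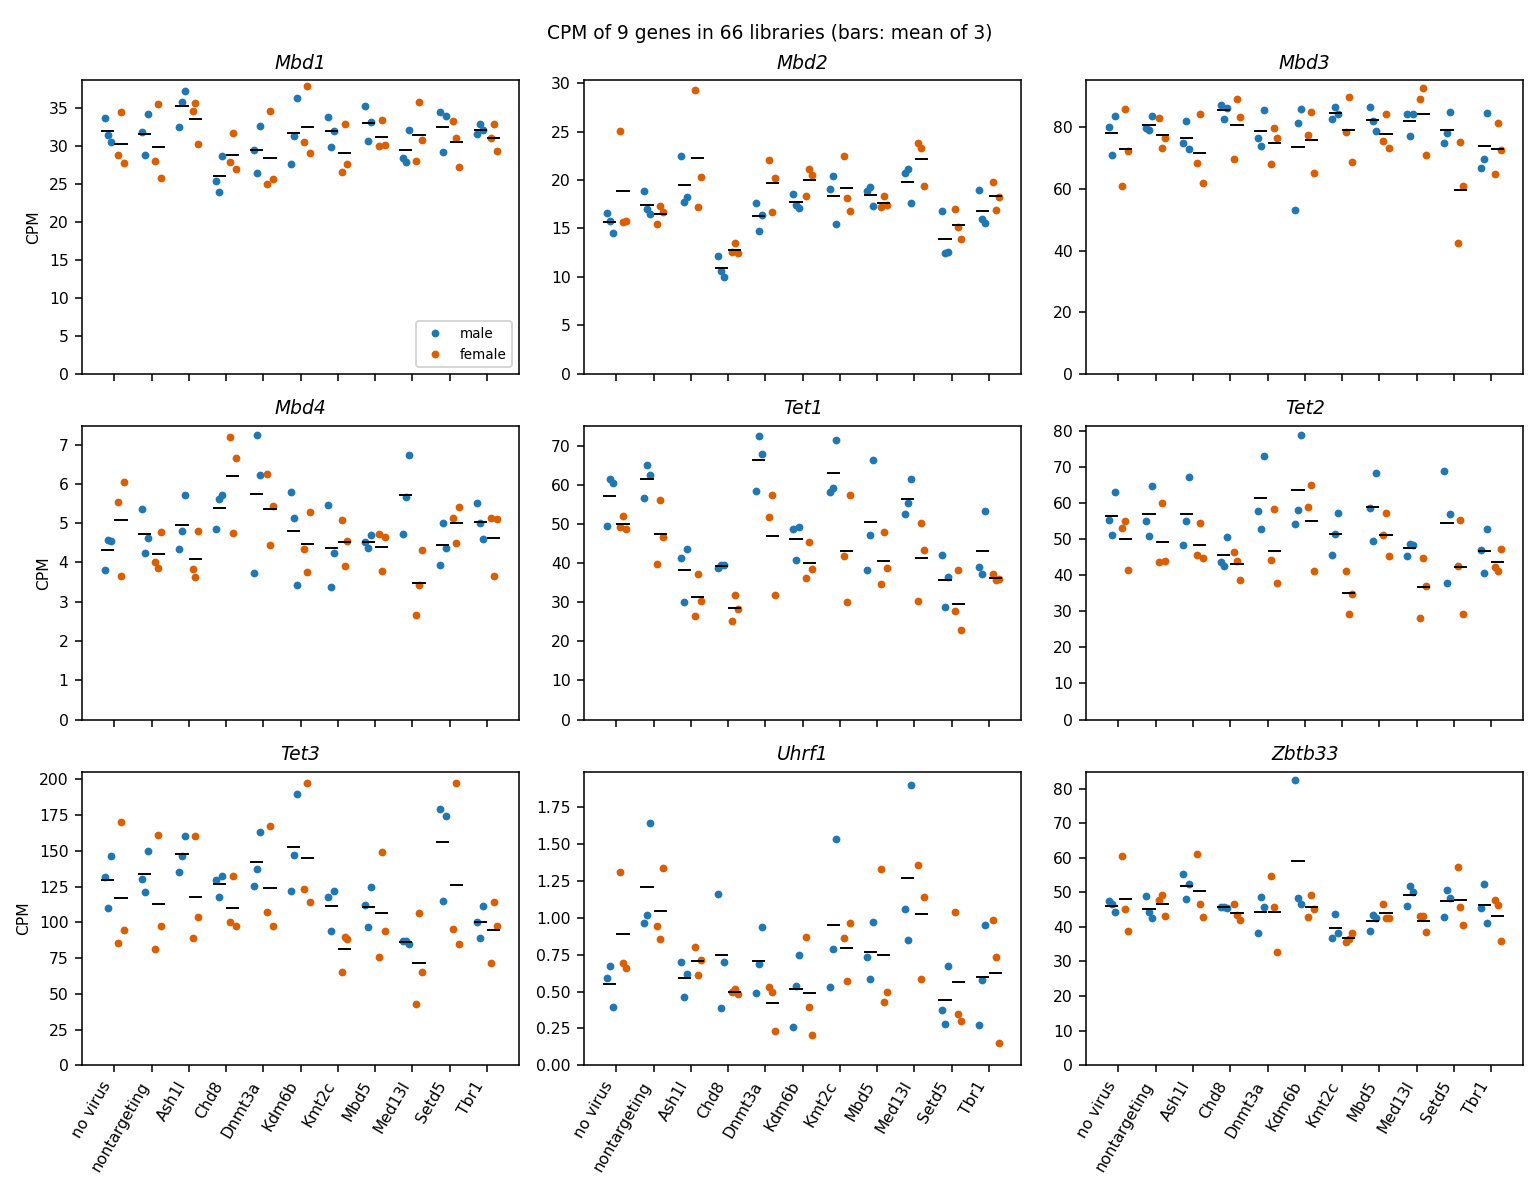
CPM of the 9 genes (vertical axes, each from 0) by treatment (horizontal axis), 1 point per library, male in blue and female in orange, with a bar at the mean of 3 libraries. Tet1 lies lower after Ash1l, Chd8 and Setd5 shRNA, Mbd2 lower after Chd8 shRNA, and Uhrf1 stays below 2 CPM in all libraries.

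Against nontargeting shRNA, with the sexes averaged, 6 of the 81 combinations of gene and knockdown passed the threshold, 1 higher and 5 lower. Over all genes and knockdowns the share called was 6.99%, with 3.04% higher and 3.95% lower, which is near the members' own share. Tests were quasi-likelihood F tests in edgeR with p-values adjusted by the Benjamini-Hochberg method over all 16145 genes of a comparison, and the threshold was 0.05. Counts at an unadjusted p under 0.05 are also given below. The share of all genes at that unadjusted level was not computed, so these counts show no excess over other genes. The 6 calls were lower Tet1 after Ash1l, Chd8 and Setd5 shRNA, lower Mbd2 after Chd8 shRNA, higher Mbd2 after Med13l shRNA and lower Tet3 after Med13l shRNA. Chd8 and Med13l shRNA had 2 of 9 calls each, beside 22.3% and 24.1% of all genes. Ash1l and Setd5 shRNA had 1 of 9 each, beside 6.16% and 5.3%. The other 5 knockdowns had 0 of 9, beside 1.4% for Dnmt3a, 0.966% for Kdm6b, 0.694% for Kmt2c, 0.663% for Mbd5 and 1.33% for Tbr1. Replicate numbers paired the libraries of 6 knockdowns in both sexes, and with the number as a block 12 of their 54 combinations were called instead of 3, while the share over all their genes went from 5.29% to 12.2%. Over all 9 knockdowns the block gave 18 of 81, beside 15.5% of all genes and knockdowns.

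**Figure D2:**
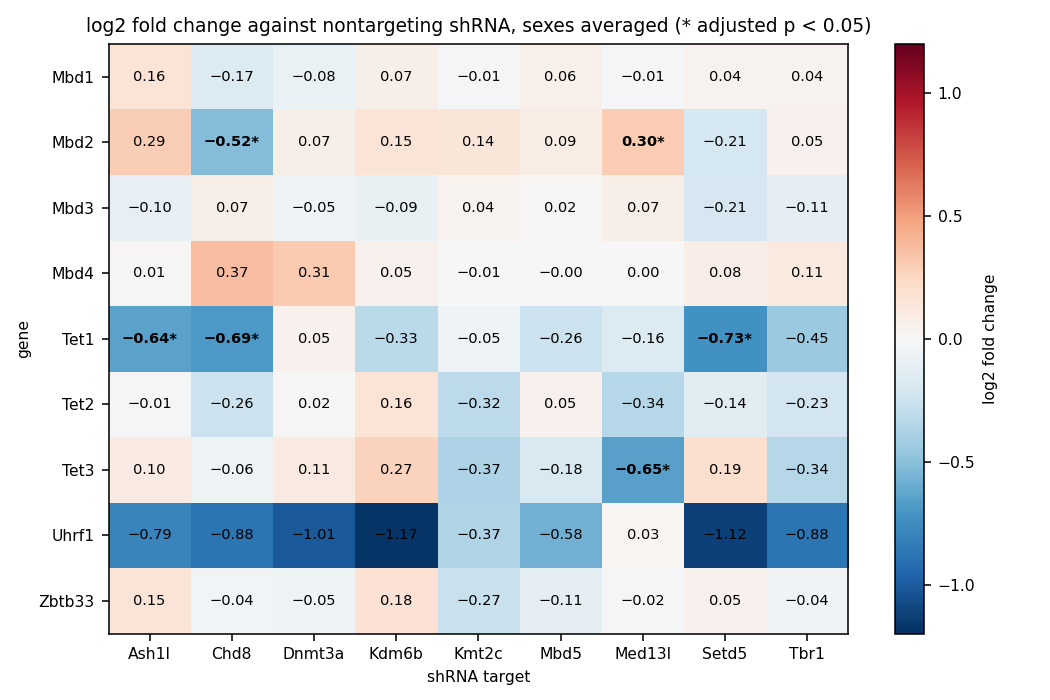
Log2 fold change of the 9 genes (vertical axis) after each of the 9 shRNAs (horizontal axis) against nontargeting shRNA, sexes averaged, as colour and number; an asterisk marks an adjusted p below 0.05 in edgeR's quasi-likelihood test. The 6 marked fields are Tet1 in Ash1l, Chd8 and Setd5, Mbd2 in Chd8 and Med13l, and Tet3 in Med13l.

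Among the TET genes, Tet1 fell after 3 of the 9 shRNAs, to between 60.1% and 63.9% of its nontargeting mean. In the 6 nontargeting libraries Tet1 ran from 39.74 through a median of 56.5 to 65.2 CPM. After Ash1l shRNA it ran from 26.5 through 33.8 to 43.6 CPM, and male and female libraries were each below all nontargeting libraries of their sex. The fall was by 0.64 on the log2 scale (SE 0.145, edgeR adjusted p = 0.00257). After Chd8 shRNA the 6 libraries ran from 25.3 through 35.3 to 39.66 CPM, all below the lowest nontargeting library. Tet1 then fell by 0.69 on the log2 scale (SE 0.145, edgeR adjusted p = 0.00028). After Setd5 shRNA the range was 23.0 through 32.6 to 42.2 CPM, again below the nontargeting libraries within each sex. Here Tet1 fell by 0.73 (SE 0.146, edgeR adjusted p = 0.000988), by 0.80 (adjusted p = 0.000446) without both male libraries that go against their labels, and by 0.70 (adjusted p = 0.00546) without the female library with Y-linked counts. When only the Setd5 and nontargeting libraries were fitted, the Setd5 adjusted p was 0.0662.

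In the other 6 knockdowns Tet1 did not pass the threshold. Log2 fold changes there ran from -0.45 after Tbr1 shRNA to 0.05 after Dnmt3a shRNA. For Tbr1, whose replicate numbers paired the libraries, the replicate block gave -0.45 with an edgeR adjusted p of 0.0176, against 0.128 without it. Markers of inhibitory neurons fell in the 3 knockdowns with a Tet1 call and also in knockdowns without one. Of 4 interneuron markers, 3 fell after Ash1l shRNA (Gad1, Gad2 and Slc32a1), 2 after Chd8 shRNA (Gad2 and Slc32a1) and 2 after Setd5 shRNA (Slc32a1 and Sst). Where Tet1 was not called, 2 fell after Med13l shRNA and 1 (Gad2) after Dnmt3a shRNA. The summed level of the 4 was 1599 to 1984 CPM in nontargeting libraries, 721 to 1129 after Ash1l, 1078 to 1598 after Chd8 and 1098 to 1829 after Setd5 shRNA. It was 943 to 1745 CPM after Med13l and 1094 to 1664 CPM after Dnmt3a shRNA. Of the 8 neuron markers, Slc17a7, Slc17a6 and Neurod6 mark excitatory neurons. Tubb3 rose and 4 of the 8 (Map2, Syt1, Slc17a7 and Slc17a6) fell after Chd8 shRNA. Slc17a6 rose after Ash1l, Slc17a7 fell after Kdm6b, and Neurod6 rose and Syt1 fell after Med13l shRNA. The summed level of the 8 was 5280 to 5917 CPM in nontargeting libraries, 4674 to 5331 after Chd8, 5368 to 6446 after Ash1l, 4993 to 5741 after Setd5 and 4334 to 4888 after Med13l shRNA. The glial markers called were Gfap, lower after Chd8 and higher after Dnmt3a shRNA, and Aqp4 and Pdgfra, lower after Med13l shRNA. The part of any of these cells in the values of the TET and Mbd genes was not tested.

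Tet3, the most abundant TET gene per kilobase, fell after Med13l shRNA only among the 9 knockdowns tested without the block. Nontargeting libraries ran from 81 through 126 to 161 CPM and Med13l libraries from 42.6 through 85.9 to 106 CPM. The groups overlapped with sexes pooled and in females, and not in males. Tet3 fell by 0.65 on the log2 scale (SE 0.206, edgeR adjusted p = 0.0162). The call was lost without nontargeting female replicate 2 (-0.47, adjusted p = 0.120) or without Med13l female replicate 1 (-0.51, adjusted p = 0.0952). It held under all 8 alternative settings of the analysis (adjusted p from 2.66e-07 to 0.0484 in edgeR or DESeq2). Against the libraries without virus, Tet3 had -0.65 without the block (edgeR adjusted p = 0.0166) and -0.65 with the replicate block (edgeR adjusted p = 3.51e-07). The numbers did not pair the Med13l libraries in males. With the replicate block, Tet3 was also lower after Kmt2c shRNA (-0.34, edgeR adjusted p = 0.0369, against 0.830 without it) and after Tbr1 shRNA (-0.32, adjusted p = 0.0351, against 0.672). Tet2 passed the threshold in 0 of 9 knockdowns (2 at an unadjusted p under 0.05 in edgeR, and 0 in DESeq2 after adjustment). Its log2 fold changes ran from -0.34 after Med13l to 0.16 after Kdm6b shRNA, and its smallest edgeR adjusted p was 0.0709.

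The balance of the 3 TET genes within a library differed as well. Each gene's share of the summed TET level per kilobase was computed, a measure chosen after the values of the genes had been seen and made from the same counts as the fold changes above. In nontargeting libraries Tet1 made 25.3% ± 2.5, Tet2 22.6% ± 1.81 and Tet3 52.2% ± 3.09 of the sum (SD, n = 6). The Tet1 share was 16.2% ± 1.65 after Setd5, 17.0% ± 1.98 after Ash1l, 18.4% ± 1.98 after Chd8 and 18.7% ± 2.82 after Kdm6b shRNA, and 30.6% ± 2.30 after Med13l shRNA. Each of these 5 differed from nontargeting in a two-sided exact permutation test within sex (p = 0.005, the smallest that the 400 permutations can give, and 0.0225 adjusted over 27 share comparisons). The Med13l difference was lost without nontargeting female replicates 2 or 3 or any 1 of the 3 Med13l male libraries (exact permutation test, adjusted p up to 0.06). For Setd5, Ash1l and Chd8 all 6 libraries were below every nontargeting library, whose lowest share was 21.6%.

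The Tet3 share moved the other way. The 3 shares are parts of one sum, so this is no separate result: where the Tet1 share is lower and the Tet2 share near its control, the Tet3 share has to be higher. The Tet3 level itself was not called after Chd8 (log2 fold change -0.06), Ash1l (0.10) or Setd5 shRNA (0.19). The Tet3 share was 62.3% ± 3.48 after Setd5 (exact permutation test, adjusted p = 0.0338), 59.3% ± 3.19 after Ash1l (exact permutation test, adjusted p = 0.0338) and 59.4% ± 1.94 after Chd8 shRNA (exact permutation test, adjusted p = 0.0225). After Med13l shRNA it was lower, at 45% ± 3.72 (exact permutation test, adjusted p = 0.045). That Med13l difference was lost without any 1 of 10 of the 12 libraries, all but nontargeting female replicate 1 and Med13l female replicate 2 (exact permutation test, adjusted p up to 0.0945). The Ash1l difference was lost without nontargeting male replicate 2, nontargeting female replicates 1 or 3, or Ash1l male replicate 2 (exact permutation test, adjusted p = 0.054 each). The Tet2 share passed in 0 of 9 knockdowns (exact permutation test), with means between 21.5% and 25.9%. Leaving out male replicate 1 of the Setd5 shRNA label, the Setd5 differences were -9.09 percentage points for Tet1 and 10.6 for Tet3, and without Setd5 female replicate 1 they were -9.42 and 11.4. Without Kdm6b male replicate 1 the Kdm6b difference in Tet1 share was -7.55 percentage points, against -6.56 with it. Against the libraries without virus, the Tet1 shares after Ash1l, Chd8 and Setd5 shRNA still passed (exact permutation test, adjusted p = 0.045 each), and the other 6 share differences did not.

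**Figure D3:**
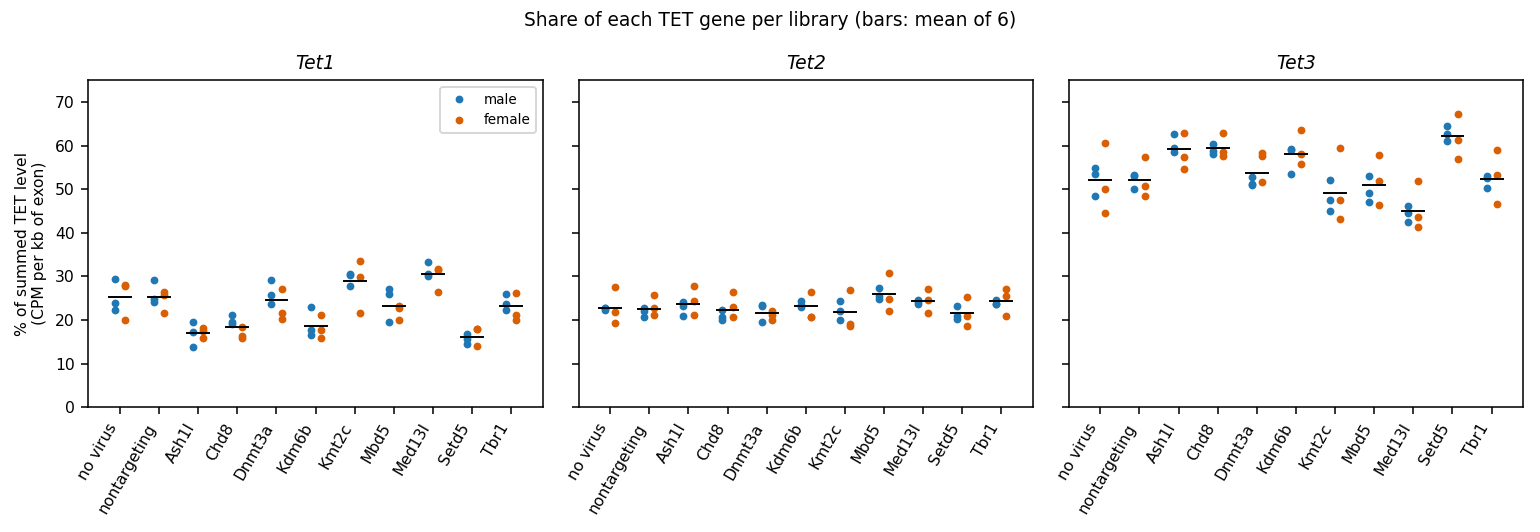
Share of Tet1, Tet2 and Tet3 in the summed TET level of each library (percent of CPM per kilobase of exon, vertical axis) by treatment, 1 point per library, with a bar at the mean of 6. The Tet1 share is lowest after Setd5 shRNA (16.2%) and highest after Med13l shRNA (30.6%), while the Tet2 share keeps between means of 21.5% and 25.9%.

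Among the methyl-CpG-binding genes, Mbd2 fell after Chd8 shRNA and rose after Med13l shRNA. Nontargeting libraries ran from 15.5 through 16.8 to 18.9 CPM. After Chd8 shRNA the range was 9.95 through 12.3 to 13.5 CPM, with no overlap. Mbd2 fell by 0.52 on the log2 scale to 70.0% of the nontargeting mean (SE 0.110, edgeR adjusted p = 0.000323). After Med13l shRNA the range was 17.6 through 20.9 to 23.8 CPM, which overlapped with the controls. The rise was 0.30 (SE 0.110, edgeR adjusted p = 0.0368). That rise was lost without any 1 of 7 libraries, namely nontargeting male replicates 2 and 3, nontargeting female replicate 1, Med13l male replicates 1 and 2 and Med13l female replicates 1 and 2 (edgeR adjusted p from 0.0518 to 0.0906). In the other 7 knockdowns Mbd2 lay between -0.21 after Setd5 and 0.29 after Ash1l shRNA and was not called. Without both male libraries that go against their labels the Setd5 value was -0.29 (edgeR adjusted p = 0.132).

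Mbd1, Mbd3 and Mbd4 passed the threshold in 0 of 9 knockdowns each. At an unadjusted p under 0.05 in edgeR these counts were 0, 0 and 2, and in DESeq2 with adjustment 0, 0 and 1. Mbd1, which binds methylated CpG and recruits the H3K9 methyltransferase SETDB1, kept between -0.17 and 0.16 on the log2 scale. It was the steadiest of the 9 genes, with an SD of log2 CPM within groups of 0.15. With the replicate block Mbd1 was lower after Chd8 shRNA, by -0.16 (edgeR adjusted p = 0.0447, against 0.200 without the block). Mbd3 lay between -0.21 after Setd5 and 0.07 after Chd8 shRNA, and its lowest library, at 42.5 CPM, was Setd5 shRNA female replicate 1. Without that library its Setd5 value was -0.11. Mbd4 had its highest value after Chd8 shRNA, at 0.37 (SE 0.153, edgeR adjusted p = 0.0726), and this passed with the replicate block (0.36, adjusted p = 0.0260) and in DESeq2 (0.39, adjusted p = 0.0426). An antisense gene overlaps 5% of the exon bases of Mbd4, and whether the counting used the strand is not given in the sources used here.

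Uhrf1 was at the edge of what these libraries can measure. It had between 4 and 61 counts per library, or 0.152 to 1.90 CPM, and an SD within groups of 0.62 on the log2 scale. Nontargeting libraries ran from 0.857 through 0.992 to 1.64 CPM and those without virus from 0.398 through 0.668 to 1.31 CPM. Uhrf1 passed the threshold after 0 of 9 shRNAs (6 at an unadjusted p under 0.05 in edgeR, and 0 in DESeq2 after adjustment), although its log2 fold changes ran from -1.17 after Kdm6b to 0.03 after Med13l shRNA. With the replicate block it was called lower in 4 of the 6 paired knockdowns. These were Setd5 (-1.21, edgeR adjusted p = 0.00651), Chd8 (-0.86, adjusted p = 0.0231), Dnmt3a (-1.02, adjusted p = 0.0349) and Tbr1 (-0.97, adjusted p = 0.0493).

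These Uhrf1 differences depended on the control. Against the libraries without virus the blocked values were -0.52 for Setd5 (edgeR adjusted p = 0.288), -0.17 for Chd8 (0.707), -0.33 for Dnmt3a (0.627) and -0.28 for Tbr1 (0.694). Nontargeting shRNA itself lay above no virus by 0.69 (SE 0.369, edgeR adjusted p = 1). Leaving out female replicate 1 of the Setd5 shRNA label, the Setd5 difference passed without the block (-1.55, edgeR adjusted p = 0.0309). Without both male libraries that go against their labels it was -1.06 (edgeR adjusted p = 0.117), and the Kdm6b value was -1.01 (adjusted p = 0.295). The Chd8 difference passed without Chd8 male replicate 1 (-1.10, edgeR adjusted p = 0.0419) and when only the Chd8 and nontargeting libraries were fitted (-0.87, adjusted p = 0.0491). The summed level of 13 proliferation markers was 74.0 to 125 CPM in nontargeting libraries, 67.4 to 106 after Setd5, 91.1 to 150 after Chd8, 70.5 to 108 after Dnmt3a, 89.1 to 128 after Tbr1, 63.2 to 93.1 after Kdm6b and 109 to 189 after Med13l shRNA. Of these markers 4 fell after Setd5, 2 after Kdm6b and 1 (Mcm5) after Dnmt3a shRNA, 2 (Mcm3 and Rrm2) rose after Chd8 and 1 (Mcm2) after Tbr1 shRNA, and 5 rose and 4 fell after Med13l shRNA. Their part in the Uhrf1 values was not tested.

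Zbtb33 passed the threshold in 0 of 9 knockdowns (1 at an unadjusted p under 0.05 in edgeR, and 0 in DESeq2 after adjustment). Nontargeting libraries ran from 42.5 through 46.1 to 49.2 CPM. The lowest log2 fold change was -0.27 after Kmt2c shRNA, where libraries ran from 35.7 through 37.5 to 43.6 CPM (SE 0.113, edgeR adjusted p = 0.508). The highest single library, at 82.4 CPM, was male replicate 1 of the Kdm6b shRNA label. With it the Kdm6b log2 fold change was 0.18 and without it 0.02. Exons of Tmem255a on the opposite strand overlap 9.25% of the exon bases of Zbtb33, so reads there may have been shared.

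Depletion of Dnmt3a, which encodes the main de novo methyltransferase of postnatal neurons, changed 0 of the 9 genes at the threshold, beside 1.4% of all genes. At an unadjusted p under 0.05 edgeR had 2 of 9 (Mbd4 and Uhrf1), a count without a share of all genes to set beside it. DESeq2 called 0 after adjustment. Dnmt3a itself stood at 45.6 through 84.7 to 120 CPM in these 6 libraries, against 289 through 393 to 429 CPM in nontargeting libraries, and fell by 2.13 on the log2 scale (SE 0.146, edgeR adjusted p = 2.71e-15). The 3 TET genes had values near 0. Tet1 ran from 31.8 through 58.0 to 72.6 CPM with a log2 fold change of 0.05 (SE 0.145, 95% interval -0.24 to 0.34, unadjusted for the number of genes). Tet2 had 0.02 (SE 0.141, interval -0.27 to 0.30). Tet3 had 0.11 (SE 0.204, interval -0.30 to 0.52). The libraries of all 3 overlapped with the controls, and none of the 3 differed beyond its error.

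For the readers after Dnmt3a shRNA, Mbd1 had -0.08 (SE 0.0902, 95% interval -0.26 to 0.10). Mbd2 had 0.07 (SE 0.110, interval -0.15 to 0.30). Mbd3 had -0.05 (SE 0.105, interval -0.26 to 0.17). None of these values is further from 0 than its standard error. Mbd4 had 0.31 (SE 0.154, interval 0.00 to 0.62), with libraries from 3.73 through 5.83 to 7.25 CPM against 3.86 through 4.42 to 5.36 CPM. Zbtb33 had -0.05 (SE 0.113, interval -0.28 to 0.17). Adjusted p-values of these 8 genes in edgeR's test ran from 0.506 for Mbd4 to 0.984 for Tet2. Uhrf1 ran from 0.234 through 0.516 to 0.940 CPM and overlapped with the controls, at -1.01 (SE 0.377, interval -1.77 to -0.25, edgeR adjusted p = 0.243). With the replicate block Uhrf1 was the 1 gene of 9 called after Dnmt3a shRNA, beside 6.97% of all genes. Gfap, an astrocyte marker, rose after Dnmt3a shRNA, the single call among 8 astrocyte markers, and the interneuron marker Gad2 fell.

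Depletion of Mbd5 likewise changed 0 of the 9 genes, beside 0.663% of all genes, and with the block again 0, beside 3.32%. It had 0 at an unadjusted p under 0.05 in edgeR, and 0 in DESeq2 after adjustment. Mbd5 stood at 10.1 through 16.8 to 21.0 CPM, against 34.9 through 44.7 to 57.5 CPM, and fell by 1.52 on the log2 scale (SE 0.134, edgeR adjusted p = 2.94e-11). Of its relatives, Mbd1 had 0.06 (SE 0.0901), Mbd2 0.09 (SE 0.110), Mbd3 0.02 (SE 0.105) and Mbd4 -0.00 (SE 0.154). Their 95% intervals all lay between -0.31 and 0.31. Tet1 ran from 34.7 through 43.0 to 66.5 CPM and had -0.26 (SE 0.145, interval -0.55 to 0.03). Tet2 had 0.05 (SE 0.141, interval -0.23 to 0.33) and Tet3 -0.18 (SE 0.205, interval -0.59 to 0.23). Uhrf1 had the widest interval, with -0.58 (SE 0.368, interval -1.32 to 0.16), and lay at 0.11 against the libraries without virus. Zbtb33 had -0.11 (SE 0.112, interval -0.33 to 0.12). The smallest edgeR adjusted p of the 9 was 0.880, for Tet1.

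**Figure D4:**
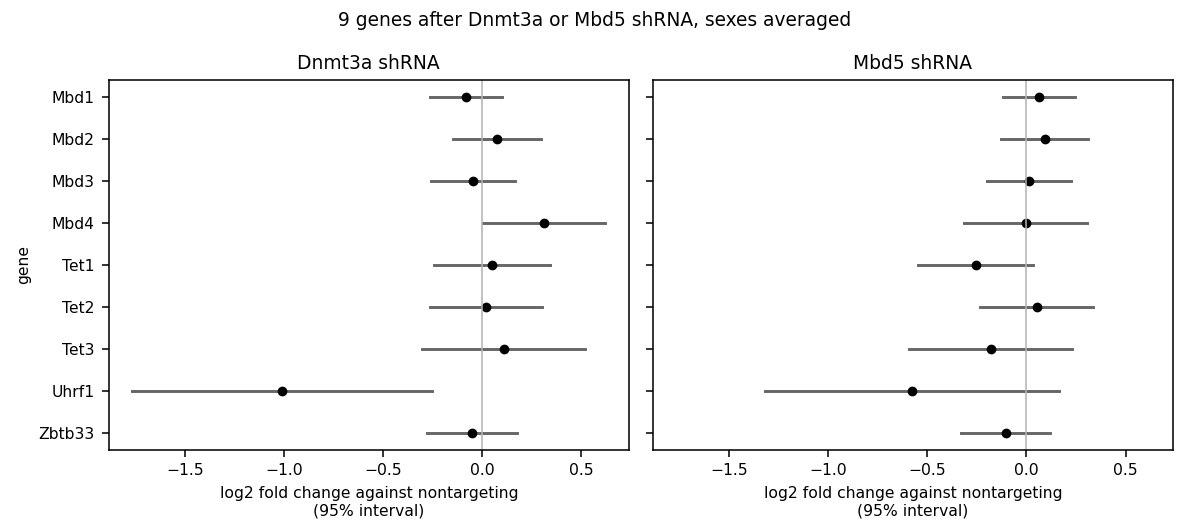
Log2 fold change against nontargeting shRNA (horizontal axis) of the 9 genes after Dnmt3a shRNA (left) and Mbd5 shRNA (right), sexes averaged; points are edgeR estimates and lines 95% intervals for a single gene. After Dnmt3a shRNA 7 of 9 points lie within 0.11 of 0, and Uhrf1 has the widest interval in both panels.

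Whether the knockdowns with calls differed from those of Dnmt3a and Mbd5 was tested directly, which leaves the nontargeting libraries out of the difference. Tet1 was lower after each of the 3 shRNAs than after Dnmt3a shRNA, by 0.69 for Ash1l, 0.74 for Chd8 and 0.78 for Setd5 on the log2 scale (edgeR adjusted p = 0.000739, 0.000104 and 0.000168). Without single libraries the Setd5 difference ran from -0.89 to -0.70 (edgeR adjusted p up to 0.00148). Mbd2 was lower after Chd8 than after Dnmt3a shRNA (-0.59, edgeR adjusted p = 4.46e-05) and Tet3 lower after Med13l than after Dnmt3a shRNA (-0.76, adjusted p = 0.0049). Members called were 1 of 9 for Ash1l, 2 for Chd8, 1 for Setd5 and 2 for Med13l against Dnmt3a, beside 8.94%, 22.3%, 10.9% and 22.9% of all genes. The second gene for Med13l was Uhrf1 (1.04, adjusted p = 0.0395), which was lost without any 1 of 7 of the 12 libraries (Dnmt3a male replicates 1 and 2, Dnmt3a female replicates 2 and 3, Med13l male replicate 3 and Med13l female replicates 1 and 3, adjusted p up to 0.140), without a filter on low counts (adjusted p = 0.0584) and with only the groups compared (0.0507).

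Against Mbd5 shRNA, Tet1 was lower after Chd8 (-0.44, edgeR adjusted p = 0.0210) and after Setd5 shRNA (-0.47, adjusted p = 0.0274), and after Ash1l shRNA its -0.39 did not pass (adjusted p = 0.0836). The Chd8 difference was lost without Chd8 female replicate 1, Mbd5 male replicate 3 or Mbd5 female replicate 2 (edgeR adjusted p up to 0.128). The Setd5 difference was lost without either of those Mbd5 libraries, Setd5 male replicate 2, or Setd5 female replicates 1 or 3 (edgeR adjusted p up to 0.150), and with only the groups compared (-0.46, adjusted p = 0.160). Mbd2 was lower after Chd8 than after Mbd5 shRNA (-0.61, edgeR adjusted p = 2.4e-05). Tet2 was lower after Med13l than after Mbd5 shRNA (-0.39, edgeR adjusted p = 0.0354), a difference lost without any 1 of 9 of the 12 libraries, all but Mbd5 male replicate 2, Mbd5 female replicate 3 and Med13l female replicate 2 (adjusted p up to 0.163), and also lost without a filter on low counts (adjusted p = 0.0507). That made 0 of 9 genes for Ash1l, 2 for Chd8, 1 for Setd5 and 1 for Med13l, beside 10.3%, 25.3%, 10.3% and 24.2% of all genes.

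Chd8 and Med13l shRNA, the pair with the most calls over all genes, differed from each other in 3 of the 9 genes, beside 36.9% of all genes. Mbd2 was lower after Chd8 shRNA by 0.82 on the log2 scale (SE 0.111, edgeR adjusted p = 3.64e-08), and the 12 libraries did not overlap. Tet1 was also lower after Chd8 shRNA (-0.53, SE 0.145, edgeR adjusted p = 0.00304). Tet3 was higher after Chd8 shRNA (0.59, SE 0.205, edgeR adjusted p = 0.0207), a difference lost without Chd8 female replicate 2 or Med13l female replicate 1 (adjusted p = 0.0628 and 0.0983).

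Within 1 sex, with 3 libraries against 3, fewer combinations passed. In males 2 of 81 were called, beside 2.28% over all genes and knockdowns, and in females 1 of 81, beside 2.68%. All 3 came from Chd8 shRNA, where 9.82% of all genes were called in males and 9.33% in females. In males Mbd2 fell by 0.68 (SE 0.157, edgeR adjusted p = 0.00226) and Tet1 by 0.65 (SE 0.205, adjusted p = 0.0332), and in females Tet1 fell by 0.74 (SE 0.206, adjusted p = 0.0139). The male Tet1 call was lost without each of its 6 libraries in turn (edgeR adjusted p from 0.0554 to 0.111). The female call was lost without nontargeting replicate 2 or Chd8 replicate 1 (adjusted p = 0.1 and 0.124). With the replicate block 6 combinations were called in males and 9 in females, beside 7.01% and 7.8% of all genes and knockdowns. The male and the female effect were compared as an interaction, which called 0 of 81 combinations at the threshold, beside 0.00206% over all genes and knockdowns. At an unadjusted p under 0.05 edgeR also had 0, and DESeq2 called 0 after adjustment. For Mbd2 after Chd8 shRNA the difference of the effects was -0.31 (SE 0.220, 95% interval -0.76 to 0.13).

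Without a knockdown, neither infection nor sex moved a gene past the threshold. Nontargeting shRNA against no virus gave 0 of 9 genes at the threshold, beside 0% of all genes (0 at an unadjusted p under 0.05 in edgeR, and 0 in DESeq2 after adjustment). Apart from Uhrf1 the log2 differences lay between -0.07 and 0.07. Males against females, over nontargeting and no virus libraries, gave 0 of 9 at the threshold, beside 0.0557% of all genes (0 at an unadjusted p under 0.05 in edgeR, and 0 in DESeq2 after adjustment). Tet1 had the largest male excess, 59.4 against 48.8 CPM (0.28, SE 0.145, edgeR adjusted p = 0.693). Zbtb33, which is X-linked, differed by -0.05 (SE 0.112).

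Part of the spread of the TET genes went with the replicate number, most clearly for Tet3 in females. In females Tet3 in replicate 2 was above the mean of its group in 11 of 11 treatments, by 0.49 ± 0.18 on the log2 scale (SD, n = 11 treatments), and in replicate 1 it was below in 11 of 11, by -0.33 ± 0.14. In nontargeting females these were 161 CPM in replicate 2 against 81 in replicate 1 and 97.1 in replicate 3. In males replicate 3 was above its group in 10 of 11 treatments, by 0.16 ± 0.089. Tet1 and Tet2 in male replicate 3 were above in 11 of 11. The labels do not say what a replicate number marks. Over the 66 libraries the SD within groups was 0.36 for Tet3, 0.26 for Tet1 and 0.25 for Tet2 on the log2 scale, so Tet3 needed the largest difference to pass.

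**Figure D5:**
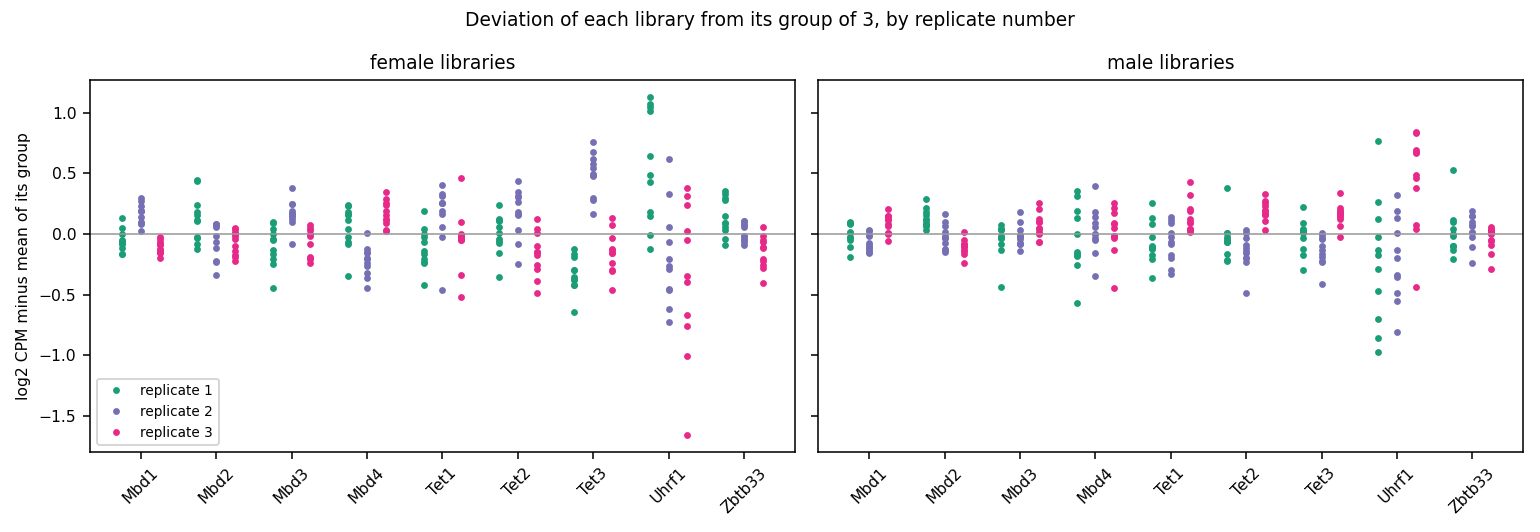
Log2 CPM of each library minus the mean of its group of 3 (vertical axis) for the 9 genes (horizontal axis), females left and males right, coloured by replicate number, 11 treatments each. Tet3 in females separates by number, with replicate 2 above 0 and replicate 1 below 0 in 11 of 11 treatments.

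Other genes of DNA methylation, 48 in 7 lists, were read beside the 9, and 47 could be tested. Of 421 combinations of gene and knockdown, 10 were higher and 22 lower at the threshold, or 7.6%, beside 6.99% over all genes and knockdowns, and 82 were called with the replicate block, beside 15.5%. Med13l shRNA had 15 of 47 (5 higher, 10 lower) and Chd8 shRNA 10 of 47 (2 higher, 8 lower), or 31.9% and 21.3%, beside the 24.1% and 22.3% of all genes. Ash1l and Setd5 shRNA had 3 each, Dnmt3a shRNA 1, and Kdm6b, Kmt2c, Mbd5 and Tbr1 shRNA 0. With the replicate block Chd8 shRNA had 19, Med13l 24, Ash1l 10, Setd5 12, Dnmt3a 6, Mbd5 4, Kdm6b and Tbr1 3 each and Kmt2c 1. The blocked share of all genes was 6.97% for Dnmt3a and 3.32% for Mbd5. It was 12.2% over the 6 paired knockdowns together and 22.2% over Ash1l, Kdm6b and Med13l together. These counts are therefore not read as an excess in the lists. The 4 after Mbd5 shRNA were Tbl1xr1, Mta1, Gatad2a and Zbtb4, of which Tbl1xr1 had the smallest p (-0.52, edgeR adjusted p = 3.27e-05, against 0.165 without the block). The medians of the lists after Chd8 shRNA ran from -0.25 for the TET partners to 0.04 for the Mbd1 partners, beside -0.00 over all genes. The 1 call after Dnmt3a shRNA without the block was Idh2, a mitochondrial enzyme that makes the TET cosubstrate 2-oxoglutarate. Idh2 fell by 0.35 from a mean of 19.7 to 15.5 CPM (SE 0.0908, edgeR adjusted p = 0.0325). It fell further, by 0.97 to 10.1 CPM, after Chd8 shRNA (SE 0.0917, edgeR adjusted p = 7e-12).

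Zbtb4, a zinc finger reader related to Kaiso, fell from 117 to 38.3 CPM after Chd8 shRNA (-1.61, edgeR adjusted p = 5.33e-13) and also fell after Med13l shRNA (-0.97, adjusted p = 4.2e-07). Among the enzymes that finish demethylation after TET, Tdg, the glycosylase that removes oxidised bases, fell after Med13l shRNA (-0.59, edgeR adjusted p = 2.62e-07) and Parp1 rose there (0.68, adjusted p = 1.85e-06). Smug1, another glycosylase, rose after Ash1l shRNA (0.66, edgeR adjusted p = 0.00511) and fell after Setd5 shRNA (-0.81, adjusted p = 0.000939). The maintenance methyltransferase gene Dnmt1 rose after Ash1l (0.31, edgeR adjusted p = 0.00449) and Med13l shRNA (0.25, adjusted p = 0.00785).

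Some partner genes were called in opposite directions after Chd8 and Med13l shRNA. Hdac1, a NuRD deacetylase, fell after Chd8 shRNA (-0.32, edgeR adjusted p = 0.0318) and rose after Med13l shRNA (0.44, adjusted p = 0.00312). NuRD subunits had 4 of 13 lower after Chd8 shRNA (Chd3, Chd4, Hdac1 and Cdk2ap1), and 2 higher and 1 lower after Med13l shRNA, beside 22.3% and 24.1% of all genes called in either direction. Cxxc5, which binds unmethylated CpG, rose after Chd8 shRNA (0.46, edgeR adjusted p = 0.00597) and fell after Med13l shRNA (-0.37, adjusted p = 0.0323). Hdac3, the NCoR deacetylase, rose after Med13l (0.18, edgeR adjusted p = 0.0318) and Setd5 shRNA (0.22, adjusted p = 0.0246), while 3 of 6 genes of that complex, Ncor1, Tbl1x and Tbl1xr1, fell after Med13l shRNA. Without both male libraries that go against their labels the Setd5 values were -0.94 for Smug1 and 0.23 for Hdac3, and without Setd5 female replicate 1 they were -0.87 and 0.24.

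For each of the 9 genes the other tested genes with the most similar pattern were sought by Pearson's r of log2 CPM over the 22 group means, which share control and replicate structure and are given as a description. Tet1 was nearest to Unc80 (r = 0.867) and Nhs (0.853), Tet2 to Gucy1a2 (0.919) and Zfp382 (0.907), and Tet3 to Lrch3 (0.920) and Zfp26 (0.913). Mbd2 was nearest to Rdh10 (0.928) and Mapk3 (0.918), Mbd3 to Wdr91 (0.908) and Yju2 (0.900), and Mbd1 to 9430015G10Rik (0.848) and Nup210 (0.811). For Zbtb33 these were Arid4b (0.848) and Secisbp2l (0.822). The 2 scarce genes had the lowest values, with Clec12a (0.731) and Rpgrip1l (0.720) for Mbd4 and Nkd2 (0.789) and Myrip (0.780) for Uhrf1.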

How the data were processed

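Whole-series gene counts from 66 libraries of polyadenylated RNA (TruSeq stranded kit, per the labels' protocols) were used. The deposited values are whole read counts per gene, not normalized, and the submitters' processing notes name STAR, featureCounts and mm10, with versions, annotation and strand setting not given in the sources used here. Of the values from 1 to 20, 26.7% were odd, against 49.1% of values of 1000 or more, so counts halved and rounded were tried as an alternative. Entries without a symbol (18483 of 48716, 0.69% to 1.41% of counts) were left out, 149 repeated symbols were summed, and 6 columns that match no sample were not used. The luciferase hairpin columns were taken as the nontargeting group.

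The analysis used edgeR 4.0.16 under R 4.3.3 (filterByExpr, TMM factors of 0.874 to 1.06, robust quasi-likelihood F test). All 66 libraries were fitted with 1 mean per group, p-values were Benjamini-Hochberg adjusted over 16145 genes, and the sexes were averaged with equal weight. CPM values use TMM-scaled library sizes. Exon lengths and positions came from GENCODE vM21 and promoters from RefSeq. Error bars rest on replicates, since amplified reads are not independent molecules. The fit was tested on simulated counts with 15958 genes and the sexes averaged. All groups had the same means there, except for 100 genes changed at each size in the Chd8 libraries. Of the changes of 1 (log2) 74% were recovered, and of those of 0.5 33%. The measured Chd8 comparison called 22.3% of all genes, so these recoveries do not describe it.

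Libraries of the same replicate number and sex deviated together (r over 0.1 for every pair with nontargeting) in 8 of 9 knockdowns in females and 6 of 9 in males, and in 6 in both sexes. A fit with the number within sex as a block was therefore added. Other alternatives were DESeq2 1.42.0, its size factors, no filter, only the groups compared, no virus as control, and leaving out libraries. The genes, lists and tests were chosen with earlier results of these data known. Combinations called with sexes averaged or in either sex, and all 9 genes after Dnmt3a and Mbd5 shRNA, are given with full statistics. Of the lists, genes called after Dnmt3a or Mbd5 shRNA and the 10 called in most knockdowns are named, apart from 1 that is not reported here, and a few others were named after their values were seen. Direct differences, block-only combinations and TET shares were added after the values were seen. The lowest chi-square per gene between libraries of a group was 7.92, so no library was treated as a duplicate.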

Additional observations from a re-analysis of the deposited data

How the results depend on the processing

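Of the 6 calls with the sexes averaged, those of Tet1 after Ash1l and Chd8 shRNA and of Mbd2 after Chd8 shRNA held under all 8 alternative settings and without each library in turn. The count of 6 ranged from 4 to 7 without single libraries and was 18 with the replicate block. The block also called Mbd2 after Ash1l, Uhrf1 after Kdm6b and Tet2 after Med13l shRNA. By the rule of r over 0.1, the numbers paired the Ash1l and Med13l libraries in females and not in males. The Kdm6b libraries were paired in neither sex. The block gave 6 calls in males, 9 in females, 1 after Dnmt3a shRNA and 82 in the lists of other genes. The male count of 2 was 1 without a filter, 4 with only the groups compared, 1 against no virus, and 1 to 3 without single libraries. The female count of 1 was 2 without both male libraries that go against their labels, 0 with only the groups compared, 3 against no virus, 2 in DESeq2 and 0 to 3 without single libraries. No blocked fit exists for males against females, because the block lies within sex. Mbd2 after Med13l shRNA was not called without a filter (edgeR adjusted p = 0.0652), nor was Tet1 after Chd8 shRNA in males (0.0560 without a filter, 0.0885 against no virus) or in females with only the groups compared (0.123). Values near 0 changed sign. Mbd3 after Dnmt3a shRNA was 0.0213 against no virus. Mbd4 after Mbd5 shRNA was 0.00393 with DESeq2 size factors, 0.000544 with halved counts and 0.00592 in DESeq2. Uhrf1 after Mbd5 shRNA, which was -0.58 against nontargeting shRNA, also changed sign and was 0.110 against no virus. Without single libraries, the values after Dnmt3a shRNA ran from -0.0289 to 0.162 for Tet1, -0.0722 to 0.106 for Tet2, -0.0255 to 0.286 for Tet3 and -0.139 to 0.0418 for Zbtb33. After Mbd5 shRNA they ran from -0.0164 to 0.0406 for Mbd3, -0.0400 to 0.0455 for Mbd4 and -0.00896 to 0.135 for Tet2. The count in the lists ran from 26 to 37. The causes were not tested. DESeq2 size factors moved the median fold change of all genes by at most 0.011. In simulated data, with 6 libraries against 6 and 100 genes changed at each size, changes of 0.5 on the log2 scale were often missed. That simulation did not cover comparisons within 1 sex, or those in which many genes are called. Uhrf1 rests on 4 to 61 counts per library.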
